A study of Bos taurus with 24 samples.

Results

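The comparison described here is summer against spring in mature bovine oocytes, that is, oocytes labelled as metaphase of the second meiotic division (MII). Its members are the 8342 genes, of 11306 in the expression table, that exceeded 0.1 FPKM in any of the 12 MII libraries. The study sequenced RNA of 24 oocyte libraries, of which 12 came from MII oocytes and the others from immature oocytes at the germinal vesicle (GV) stage. The spring group holds 6 libraries of oocytes collected in May, and the summer group holds 6 libraries of oocytes collected in July. Both groups came from non-lactating and non-pregnant adult Angus-based crossbred beef cows (Bos taurus) kept on pasture under the same management. The cows were sedated with xylazine and given epidural lidocaine for each aspiration, and dominant follicles were removed before the first collection. Oocytes of July came after more aspirations than those of May. The month of collection was the only labelled difference between the groups, and no experimental heat treatment was given. In both seasons the cumulus-oocyte complexes were aspirated from the living animal, matured in vitro with FSH and serum under the same conditions, and stripped of cumulus cells. The MII oocytes of both groups had thus spent the last part of their development in an incubator and not in the cow. The study scored this stage by DNA staining of oocytes fixed for microscopy, where maturation was incomplete in both seasons. It describes no such scoring of the sequenced pools, which may hold oocytes that had not reached MII. The study describes pools of 4 oocytes, 1 pool per animal and library, whereas the sample labels describe the lysis of individual cells, and the pool is taken here as the replicate. The study collected repeatedly from 1 group of cows that was smaller than the 12 libraries, so the seasons share some animals. The labels do not say which cow gave which library. The main fit therefore does not pair the libraries, and p values measure the spread between these libraries.

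An MII oocyte has condensed chromosomes on a spindle and makes almost no new RNA. Its transcripts were stored during growth, and from the resumption of meiosis onwards they are translated, deadenylated or degraded until the embryo starts its own transcription. A lower share of a transcript at this stage can therefore stem from its storage or from its turnover, among other sources. These cannot be told apart in a table of levels, and a lower share does not by itself show a loss of RNA.

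Values are FPKM, fragment counts divided by exon length and by the library's mapped fragments, so they can be compared between genes. Every library sums to the same total, 86768.2 FPKM in spring replicate 1, and each value is thus a share of the library's RNA. In pools of oocytes, fewer cells of a type and less RNA per cell cannot be told apart, and a change in the RNA content of the whole oocyte would not be seen. The depth of the 12 libraries was not equal. Relative to spring replicate 1, the reads behind 1 unit of FPKM were 0.161 in spring replicate 6 and 0.586 to 1.07 in the other libraries. This measure, called depth here, depends on the scaling to a common total as well as on the number of reads. The genes with reads recovered from the FPKM steps held 55.4% of all FPKM. Their reads came to 907437 in spring replicate 6 and 2728725 to 3556340 in the other MII libraries. They thus spread less than the relative depth. Spring replicate 6 also had the lowest mean correlation with the others, 0.884 against at least 0.922. All 13 oocyte markers in the table had a mean over 1 FPKM, and their summed level was 1108 to 1484 FPKM in spring and 981 to 1258 FPKM in summer. Of these 13, 10 had a lower and 3 a higher mean in summer with a median log2 fold change of -0.24, none had p under 0.05, and the interval of the difference was within 2-fold for 6. Of 20 cumulus and granulosa cell markers in the table, 5 were at or under 0.1 FPKM in all libraries, and FSHR, the receptor of follicle stimulating hormone, was at the lowest value of the table in all 12. The summed level of these 20 markers was 35.1 to 63.3 FPKM in 5 spring libraries, 162 FPKM in spring replicate 6 and 27.2 to 85.3 FPKM in summer. KRT8, STAR and KRT18 gave most of that sum, and KRT18 alone reached 70.8 FPKM in spring replicate 6. The 8 blood cell markers summed to 3.21 to 9.25 FPKM in spring and 2.97 to 9.18 FPKM in summer.

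On the log2(FPKM + 1) scale, few transcripts passed the limits of the study between the seasons in MII oocytes. Differences were fitted with limma on the log2(FPKM + 1) scale, and a gene was called at the limits used in the study, a change of more than 2-fold and p under 0.05 before adjustment. On this scale the fold change of genes near or under 1 FPKM is understated. Only 4 genes, or 0.048% of those tested, were called, and all 4 fell in summer: ZNF830, CRH, SOX2 and LOC616092. The study, which used other software, reported more genes than these 4 at its limits. The count depends on the scale. A pseudocount of 0.1 gave 25 called genes (21 lower, 4 higher) and one of 0.01 gave 82 (65 lower, 17 higher). The ratio of group means as fold change gave 63 (50 lower, 13 higher), and voom on recovered reads gave 88 (84 lower, 4 higher). All 4 genes were among the called ones in each of these. An unadjusted p under 0.05 was reached by 143 genes (1.71%), 126 of them lower (1.51%) and 17 higher (0.204%) in summer. Chance gives a p under 0.05 in about 5% of genes, so this count does not by itself show a seasonal difference. The observed share was below 5%, and why was not tested. With the replicate number as a block, 283 genes had p under 0.05. After Benjamini-Hochberg adjustment in limma no gene had a p under 0.05, and the lowest adjusted p was 1. The share of lower genes among those with p under 0.05 was 88.1%, but it depended on the scaling. It was 63.7% with quantile normalization, 70.6% with median-of-ratios scaling, 41% with the number of detected genes as a covariate and 95.3% with voom on the reads recovered from the FPKM steps. Without spring replicate 6, the library of low depth, 10 genes were called and 220 had p under 0.05, and 3 of the 4 genes were among the called ones. CRH was the exception.

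**Figure D1:**
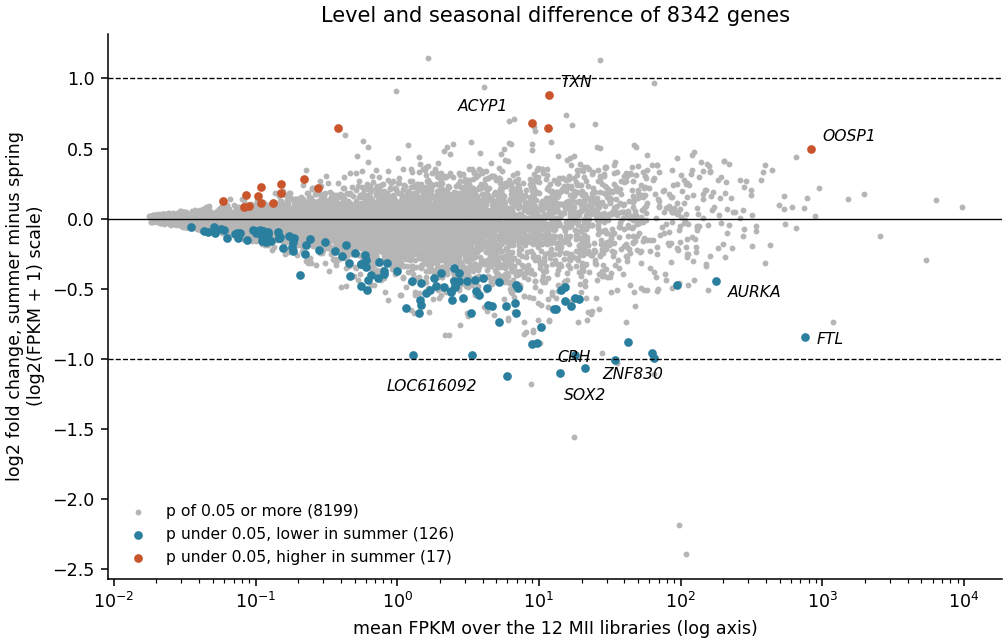
Mean FPKM over the 12 MII libraries (x, log axis) against the log2 fold change, summer minus spring (y, log2(FPKM + 1) scale), for 8342 genes, 1 point per gene; blue and orange points had an unadjusted limma p under 0.05, and dashed lines mark 2-fold. Most of the 126 lower and 17 higher genes lie under 10 FPKM, and 2 lower and 1 higher lie at 100 FPKM and more. The 4 called genes lie just below the lower dashed line between 5.96 and 34.6 FPKM.

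ZNF830, a zinc finger protein of the pre-mRNA splicing machinery (UMD3.1.1, chromosome 19, 15446156 to 15447897, minus strand), had 25.6 FPKM at the lowest, 27.5 at the median and 36.4 at the highest in spring. In summer it had 9.40, 12.9 and 17.8 FPKM. The seasons did not overlap, and the highest spring value, in replicate 1, stood apart from the other 5. The mean fell from 28.7 ± 4.01 to 13.4 ± 3.21 FPKM (SD, n = 6 each), a log2 fold change of -1.06 with a 95% interval of -1.5 to -0.62 (limma unadjusted p = 0.000138, exact permutation test, two-sided, p = 0.00216, which is the lower limit of this design). It was covered by at least 74 reads in each library, as recovered from the steps of the FPKM values. In GV oocytes ZNF830 averaged 27.5 ± 6.41 FPKM in spring and 38.5 ± 30.25 FPKM in summer. A seasonal difference was not detected at that stage (limma unadjusted p = 0.461).

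CRH, the peptide that starts the pituitary and adrenal stress response when it is secreted by the hypothalamus (chromosome 14, 32213513 to 32215195, minus strand), had 23.6, 50.8 and 63.0 FPKM as the lowest, median and highest spring values. Its summer values were 13.1, 21.8 and 37.8 FPKM. The groups overlapped: the lowest spring libraries, replicates 2 and 5, lay among the summer values. The mean fell from 46.4 ± 14.7 to 22.7 ± 8.56 FPKM, a log2 fold change of -1.01 (95% interval -1.64 to -0.37, limma unadjusted p = 0.0041, exact permutation p = 0.0152). CRH was the most abundant of the 4 called genes and stood close to the 2-fold limit, so that it was called in 5 of the 12 fits that left out 1 library while its p stayed under 0.05 in all of them. At the GV stage CRH was at 31.4 FPKM in spring and 29.7 FPKM in summer.

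SOX2, a transcription factor of pluripotent cells (chromosome 1, 85933316 to 85934783, minus strand), had 7.11, 22.8 and 29.1 FPKM in spring and 3.16, 10.3 and 11.6 FPKM in summer. Here 4 spring libraries lay above all summer libraries and the other two, replicates 2 and 5, lay within the summer range. These are the same 2 libraries that were lowest for CRH. The mean fell from 19.6 ± 8.91 to 8.41 ± 3.65 FPKM, a log2 fold change of -1.10 (95% interval -1.93 to -0.27, limma unadjusted p = 0.0133, exact permutation p = 0.0303). LOC616092, which the table lists without a gene name (chromosome 2, 97501492 to 97503976, plus strand), had 3.66, 8.19 and 14.3 FPKM in spring and 1.23, 2.79 and 6.97 FPKM in summer. Its groups overlapped as well, with spring replicates 2 and 5 again the lowest of their season. The mean fell from 8.44 ± 3.97 to 3.48 ± 2.32 FPKM, a log2 fold change of -1.12 (95% interval -1.91 to -0.33, limma unadjusted p = 0.00857, exact permutation p = 0.0216).

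Leaving out 1 library in turn gave 3 to 17 called genes, with over 1.5 times the 4 genes without spring replicates 2 (11), 5 (10) or 6 (10) and without summer replicates 1 (17), 3 (13) or 4 (7). Without spring replicate 1, 3 genes were called and none of the 4 was among them. ZNF830 was called in 10 of these 12 fits, LOC616092 in 9 and SOX2 in 8. The 4 genes were lower in summer with p under 0.05 in all 23 alternative fits that gave a p.

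**Figure D2:**
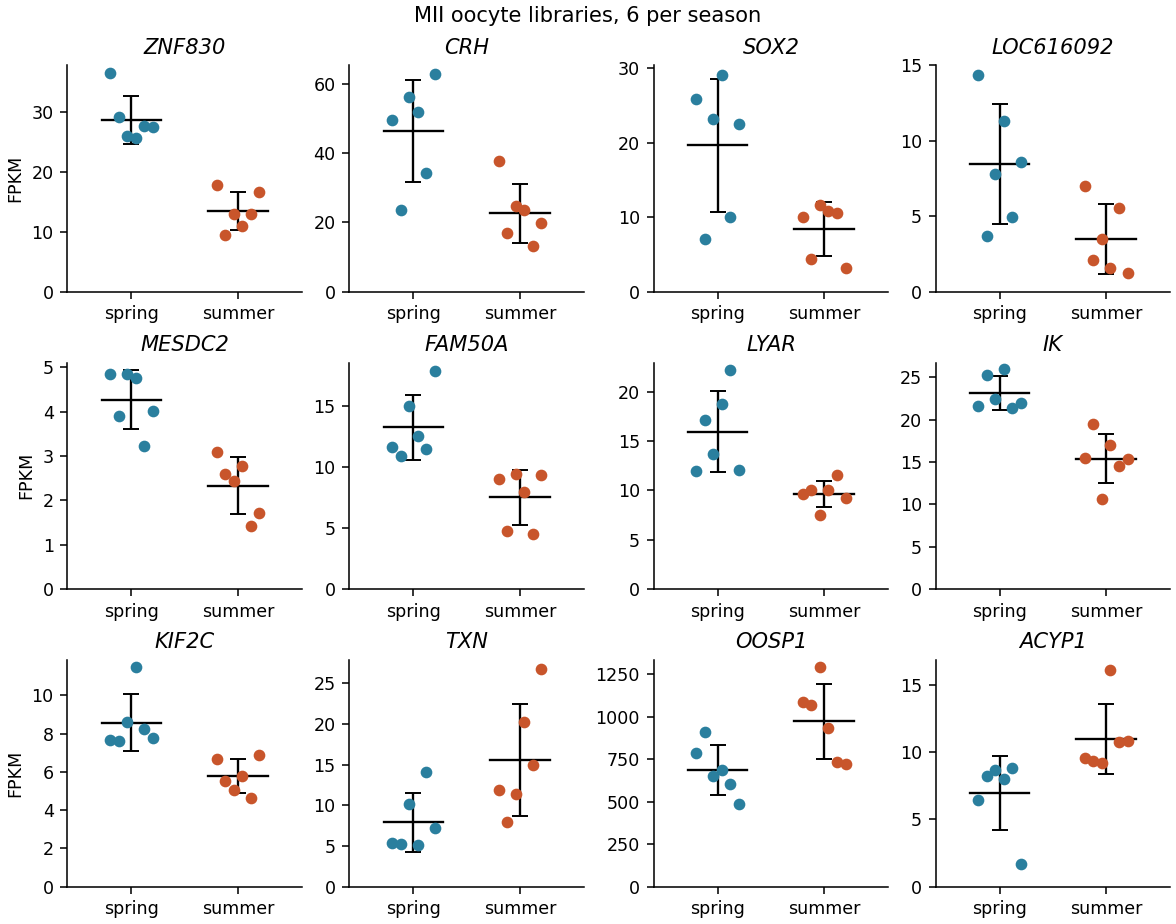
FPKM (y, linear axes starting at 0) of 12 genes in the 6 spring (blue) and 6 summer (orange) MII libraries, 1 point per library, with the mean and SD in black. ZNF830, MESDC2, FAM50A, LYAR, IK and KIF2C do not overlap between the seasons and are lower in summer, ACYP1 does not overlap and is higher, and the other 5 genes overlap.

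Complete separation of the seasons was seen for 17 genes, 0.204% of those tested, 16 lower (0.192%) and 1 higher (0.012%) in summer. For a single gene, complete separation has an exact permutation p of 0.00216, so a count of this size over all genes does not by itself show a seasonal difference. Several of these genes are named here after their values were seen. MESDC2, a chaperone of the endoplasmic reticulum needed for LRP receptors of the Wnt pathway, had 3.22, 4.38 and 4.85 FPKM in spring and 1.41, 2.51 and 3.09 FPKM in summer (log2 fold change -0.67, 95% interval -1.07 to -0.27, limma unadjusted p = 0.00277). FAM50A, a spliceosome component, had 10.9, 12 and 17.8 FPKM in spring and 4.53, 8.47 and 9.44 FPKM in summer (-0.77, 95% interval -1.27 to -0.27, limma unadjusted p = 0.00506). Neither gene changed by 2-fold.

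IK, another splicing factor, had 21.4, 22.2 and 26.0 FPKM in spring and 10.6, 15.5 and 19.5 FPKM in summer (log2 fold change -0.57, limma unadjusted p = 0.00975). LYAR, a nucleolar protein of ribosome biogenesis, had 11.9, 15.4 and 22.2 FPKM in spring and 7.48, 9.82 and 11.6 FPKM in summer (-0.64, limma unadjusted p = 0.00818). KIF2C, the kinesin that depolymerizes microtubules at kinetochores, had 7.61, 7.99 and 11.5 FPKM in spring and 4.63, 5.66 and 6.88 FPKM in summer (-0.50, limma unadjusted p = 0.0162). The spring libraries of IK were close together, whereas the spring maximum of KIF2C, in replicate 4, stood apart. GOPC, a Golgi protein, fell from 1.93 ± 0.374 to 0.971 ± 0.300 FPKM and POLR3G, a subunit of RNA polymerase III, from 0.868 ± 0.257 to 0.375 ± 0.0912 FPKM. UPF3B, a factor of nonsense-mediated decay, fell from 2.13 ± 0.163 to 1.27 ± 0.578 FPKM. ACYP1, an acylphosphatase and the only separated gene with a higher level in summer, had 1.65, 8.09 and 8.83 FPKM in spring and 9.19, 10.2 and 16.1 FPKM in summer (0.68, limma unadjusted p = 0.0451). Its lowest value was that of spring replicate 6, and without this library its log2 fold change was 0.39 (limma unadjusted p = 0.0632). The p of ACYP1 was under 0.05 in 10 of 23 alternative fits.

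Further genes fell with p under 0.05 without being called, and they too are named after their values were seen. HIST1H1C, a linker histone, had 54.2, 82.6 and 113 FPKM in spring and 14.5, 44.5 and 90.2 FPKM in summer (log2 fold change -0.996, limma unadjusted p = 0.0156). DRAP1, a repressor of RNA polymerase II initiation, had 52.2, 61.6 and 138 FPKM in spring and 21.1, 30.0 and 99.5 FPKM in summer (-0.96, limma unadjusted p = 0.0311). PTMA, the acidic nuclear protein prothymosin alpha, had 30.2, 55.5 and 83.9 FPKM in spring and 9.20, 32.0 and 43.3 FPKM in summer (-0.88, limma unadjusted p = 0.0254). All 3 overlapped between the seasons. IFT27, of the intraflagellar transport complex, fell from 23.7 ± 9.84 to 12.6 ± 7 FPKM, and PHLDA2, an imprinted gene best known from the placenta, fell from 13.0 ± 6.34 to 6.42 ± 2.70 FPKM. TMEM205 fell from 5.07 ± 5.07 to 1.70 ± 0.886 FPKM, with 15.4 FPKM in spring replicate 6. DKC1, the pseudouridine synthase dyskerin of snoRNPs and telomerase, fell from 15.9 ± 3.13 to 10.4 ± 4.97 FPKM.

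The genes that rose in summer were few and mostly rare. Of the 17, 13 had a mean under 1 FPKM, and 12 of the 16 with recovered reads had under 120 reads over all 12 libraries together, a share of 75% against 16.8% of all genes with recovered reads. For the genes that fell, 29 of 119 were under this limit. The exceptions on level were ACYP1, OOSP1, TXN and TCEAL8. TXN is thioredoxin, which reduces disulfides in proteins. It had 5.14, 6.33 and 14.1 FPKM in spring and 7.91, 13.4 and 26.8 FPKM in summer, and the mean rose from 7.88 ± 3.6 to 15.5 ± 6.89 FPKM (log2 fold change 0.88, 95% interval 0.21 to 1.56, limma unadjusted p = 0.0139). The seasons overlapped, with 1 spring library above the summer median. TCEAL8, a nuclear protein related to transcription elongation factor A, had 4.70, 9.25 and 10.9 FPKM in spring and 7.72, 12.7 and 23.6 FPKM in summer (0.65, limma unadjusted p = 0.0368). Its p was under 0.05 in 14 of 23 alternative fits. Of the others, PEX26, a peroxisomal membrane protein, rose from 0.0215 ± 0.0127 to 0.198 ± 0.116 FPKM (limma unadjusted p = 0.00111) with 47 reads in all, and TMEM25 rose from 0.0486 ± 0.0569 to 0.252 ± 0.147 FPKM with 56 reads. MIR10B and TSPYL5 were listed at the lowest value, 0.01, in all 6 spring libraries, and their differences rest on 3 and 7 reads.

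OOSP1, oocyte secreted protein 1, was the most abundant gene that rose. It had 485, 667 and 911 FPKM in spring and 724, 1001 and 1293 FPKM in summer, so that the highest 2 spring libraries lay within the summer range. The mean rose from 687 ± 147 to 973 ± 221 FPKM (log2 fold change 0.50, 95% interval 0.10 to 0.90, limma unadjusted p = 0.0177, exact permutation p = 0.0260). FTL, the light chain of the iron store ferritin, was the only one of the 20 most abundant genes that fell. It had 543, 912 and 1473 FPKM in spring and 254, 438 and 1054 FPKM in summer. The mean fell from 943 ± 352 to 557 ± 302 FPKM (-0.84, 95% interval -1.56 to -0.12, limma unadjusted p = 0.0250, exact permutation p = 0.0563). The limma and the permutation p of FTL lay on different sides of 0.05.

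For the other 18 of the 20 most abundant genes, a seasonal difference was not detected. TMSB4 and TMSB4X, which share the name of the actin-binding peptide thymosin beta 4, were highest, with 9286 ± 2099 and 5985 ± 284 FPKM in spring and 9934 ± 2947 and 6631 ± 1175 FPKM in summer. Reads of such near-identical genes could be split between them by the counting. The narrowest intervals were those of TMSB4X (log2 fold change 0.13, 95% interval -0.09 to 0.35), OOEP (-0.06, -0.35 to 0.23) and TOMM6 (0.02, -0.28 to 0.32). OOEP belongs to the subcortical maternal complex, and TOMM6 to the import channel of mitochondria. In contrast, UBB (ubiquitin) ranged from 1168 to 9350.2 FPKM in spring and from 1652 to 8110.1 FPKM in summer, and its interval of -1.39 to 0.81 reaches beyond 2-fold downwards. PTTG1 (securin) had an interval of -0.40 to 0.75. DPPA3, which protects the maternal genome from demethylation, had one of -0.24 to 0.56, and CKS2, a subunit of cyclin-dependent kinases, one of -0.49 to 0.42. ID3, an inhibitor of helix-loop-helix transcription factors, had 1407 ± 653 FPKM in spring and 976 ± 730 FPKM in summer (-0.74, -1.69 to 0.21).

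**Figure D3:**
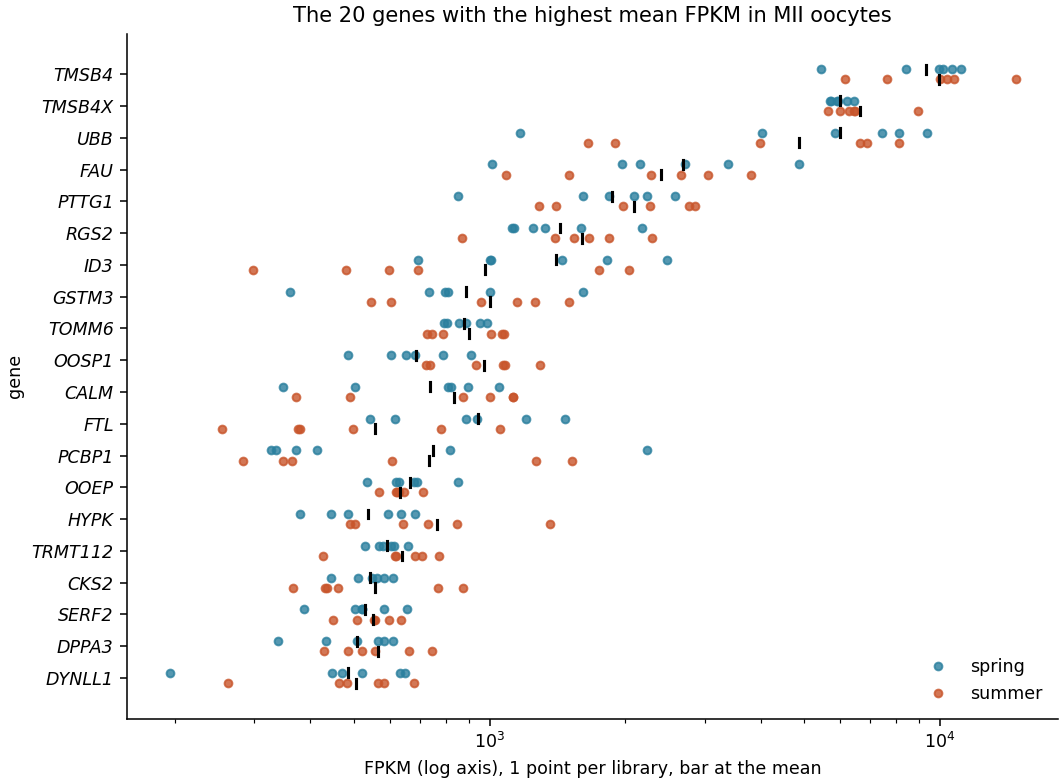
FPKM (x, log axis) of the 20 genes with the highest mean in MII oocytes, with 1 point per library for 6 spring (blue) and 6 summer (orange) libraries and a bar at each mean. The seasons overlap for all 20 genes. OOSP1 lies to the right and FTL to the left in summer, and UBB spreads over the widest range of the 3 highest genes.

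How far the transcriptome stayed stable was read from the 95% interval of each difference, since a p over 0.05 alone does not show it. For 7540 genes (90.4%) the interval lay within 2-fold in either direction, and for 5341 (64%) within 1.5-fold. Rare genes dominate these counts because the added 1 damps their changes. Of the 3291 genes with a mean of at least 1 FPKM, the interval was within 2-fold for 2516 (76.5%) and within 1.5-fold for 683 (20.8%), and its median half-width was 0.595 on the log2 scale. Of these 3291 genes, 62 had p under 0.05 and were lower, 4 were higher, and for 740 the interval reached beyond 2-fold with a p of 0.05 or more. The 118 genes with at least 100 FPKM held 64.2% of all FPKM. Among them 2 were lower and 1 was higher with p under 0.05, none was called, and 74.6% of the intervals were within 2-fold. The lowest share within 2-fold, 64.9%, was that of the 740 genes between 10 and 100 FPKM, where 3 of the 4 called genes lay. The median SD between libraries of 1 season was 0.532 on the log2 scale in this class and 0.469 in the most abundant one.

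**Figure D4:**
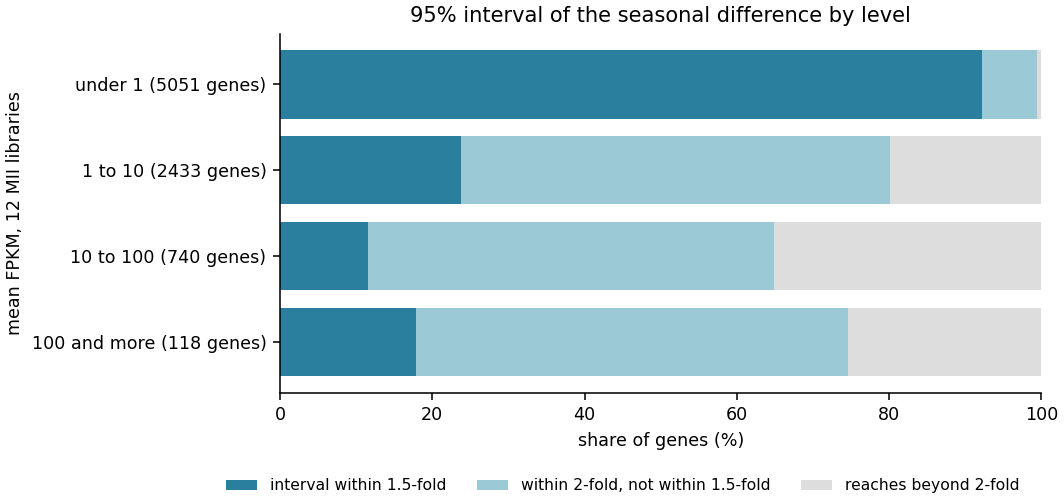
Share of genes (x, %) in 4 classes of mean FPKM whose 95% limma interval of the seasonal difference lies within 1.5-fold (dark), within 2-fold but not 1.5-fold (light) or reaches beyond 2-fold (grey). The share within 2-fold is 99.5% under 1 FPKM, 80.1% from 1 to 10, 64.9% from 10 to 100 and 74.6% at 100 FPKM and more.

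Beyond 2-fold in either direction lay 12 genes, of which 8 did not reach an unadjusted p under 0.05. Of these 8, 6 were loci of symbols that the table lists at 2 places, where a value of 0.01 alternated with high values between libraries. Examples named after their values were seen follow. RBX1 on chromosome 4, a subunit of cullin ubiquitin ligases, was at 0.01 in 2 summer libraries and between 93.3 and 141 FPKM in all 10 others. GSR on chromosome 3 (glutathione reductase) was at 0.01 in 4 spring and 3 summer libraries, and NUP54 on chromosome 29 (a nucleoporin) in 4 and 5. For such loci, a seasonal change and a switch of the reads from 1 locus to the other cannot be separated. The other two, SOX4 and FAM181B, had intervals of -2.51 to 0.45 and -2.47 to 0.12.

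By function, the 37 gene lists described here moved little. Their median log2 fold changes lay between -0.10 and 0.12, against -0.02 over all genes tested, and 20 of the 37 had no member with p under 0.05. Quantile normalization or median-of-ratios scaling shifted a list's median by up to 0.08 and changed the sign of 12 of the 37. These are the MAPK cascade, RNA-binding regulators, Wnt signaling, ZNF genes, antioxidant genes, glycolysis, mRNA decay, maternal effect genes, cyclins, the nuclear pore, the p53 checkpoint and ubiquitin conjugating enzymes, and the sign of their medians given here holds for the values as deposited. Over all genes tested, 59.4% had a lower and 40.6% a higher mean in summer, and 1.51% fell and 0.204% rose with p under 0.05. The counts of the lists stand beside these shares, and no list was tested against other genes.

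**Figure D5:**
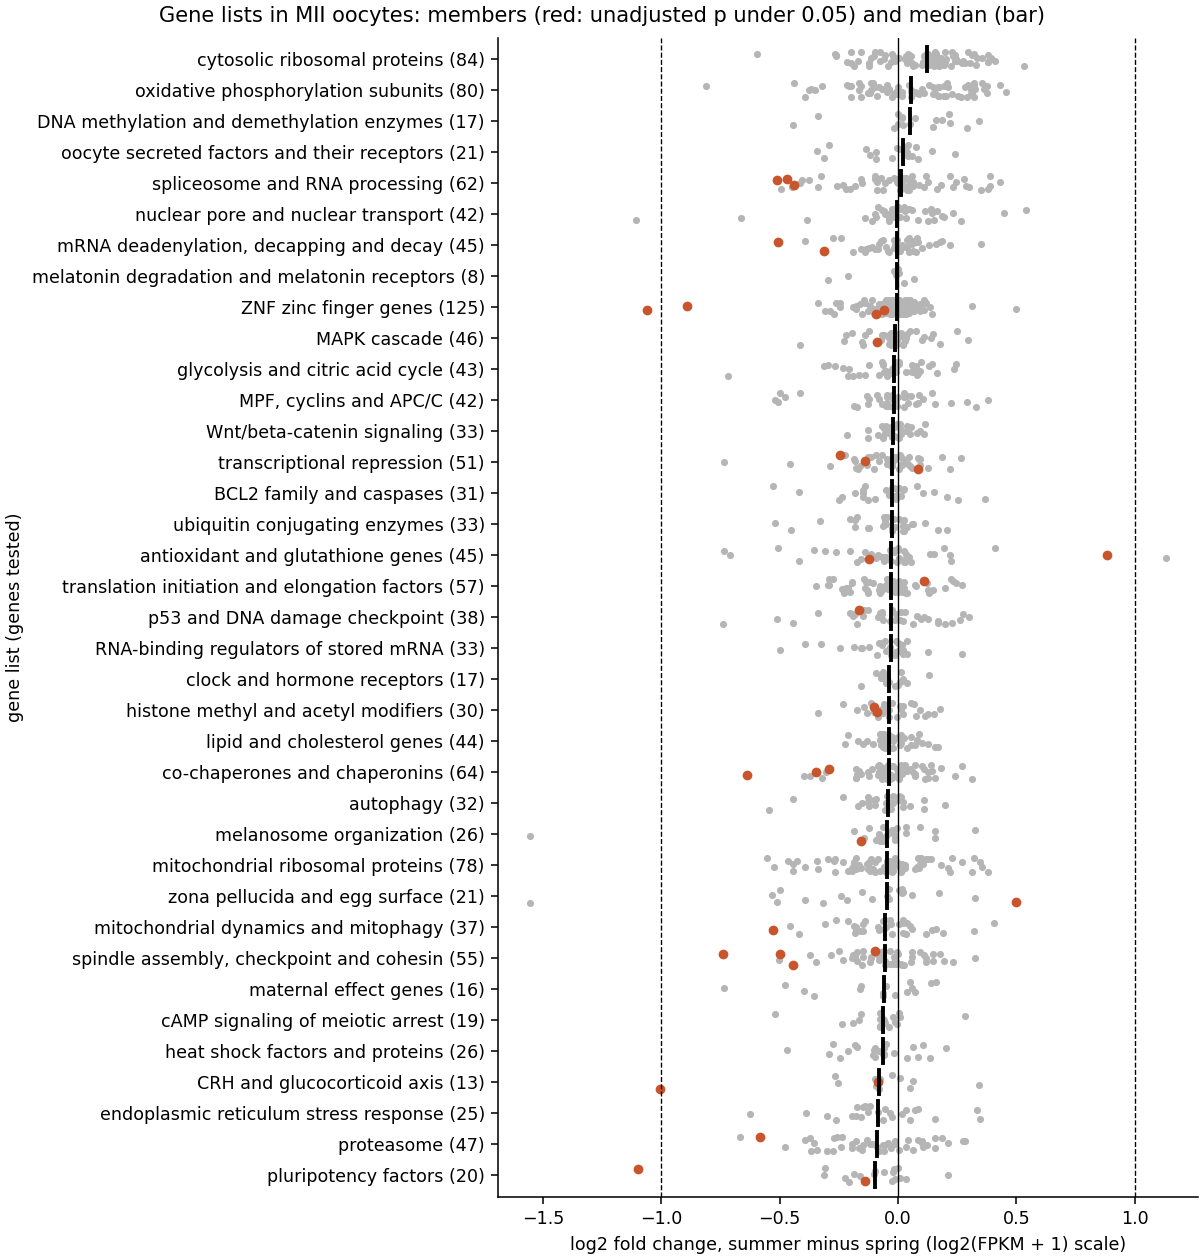
Log2 fold change, summer minus spring (x, log2(FPKM + 1) scale), of the members of 37 gene lists in MII oocytes (y, number tested in brackets), with grey points for p of 0.05 or more, red points for an unadjusted limma p under 0.05 and a black bar at the median; dashed lines mark 2-fold. All medians lie between -0.10 and 0.12, and 20 of the 37 lists have no red point.

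Heat shock proteins refold proteins damaged by heat and are the best known marks of heat stress. Of 26 heat shock factors and heat shock proteins tested, 20 had a lower and 6 a higher mean in summer, where 59.4% of all genes were lower, none had p under 0.05, and the median was -0.06. HSPE1, the mitochondrial co-chaperonin and the most abundant of them, had 138 ± 17.3 FPKM in spring and 163 ± 41.3 FPKM in summer (log2 fold change 0.20, 95% interval -0.21 to 0.62). HSP90AA1, the inducible HSP90, had 130 ± 87.1 and 95.1 ± 62.6 FPKM (-0.47, -1.35 to 0.41), with a spring range of 70.8 to 303 FPKM. Among 64 co-chaperones and chaperonin subunits (median -0.04), 3 fell with p under 0.05 (1.51% of all genes) and none rose: DNAJC30 from 1.64 ± 0.802 to 0.653 ± 0.370 FPKM, DNAJB12 from 0.758 ± 0.141 to 0.438 ± 0.121 FPKM and DNAJC2 from 2.94 ± 0.479 to 2.09 ± 0.295 FPKM, all of them partners of HSP70. The p of DNAJC2 was under 0.05 in 6 of 23 alternative fits. None of the 25 endoplasmic reticulum stress genes passed (median -0.09). DDIT3, the stress-induced factor CHOP, was high in both seasons, with 125 ± 35.3 and 116 ± 36.1 FPKM.

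Of 45 antioxidant and glutathione genes (median -0.03), TXN rose, and GSTK1, a mitochondrial glutathione transferase, fell from 0.223 ± 0.0537 to 0.122 ± 0.0625 FPKM. GSTM3, a glutathione transferase and one of the 20 most abundant genes, had 884 ± 412 FPKM in spring and 1002 ± 376 FPKM in summer (0.22, 95% interval -0.48 to 0.92). None of 31 BCL2 family and caspase genes passed (median -0.03), with CYCS, cytochrome c, at 101 ± 27.0 and 121 ± 33.1 FPKM and BAX, which opens the mitochondrial outer membrane, at 2.08 ± 1.39 and 1.23 ± 1.25 FPKM. Of 38 genes of p53 and the DNA damage checkpoint (median -0.03), the cell cycle inhibitor CDKN1A fell from 0.385 ± 0.133 to 0.231 ± 0.0442 FPKM (limma unadjusted p = 0.0484), with p under 0.05 in 5 of 22 alternative fits. None of 32 autophagy genes passed (median -0.04).

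Among genes particular to oocytes, 21 of the zona pellucida, egg surface and cortical granules were tested (median -0.05), of which OOSP1 rose. ZP2, a zona pellucida protein that binds sperm, had 118, 129 and 185 FPKM in spring and 70.0, 109 and 216 FPKM in summer (-0.24, 95% interval -0.79 to 0.32). None of 21 oocyte secreted factors and their receptors passed (median 0.02). GDF9, the growth factor that the oocyte sends to cumulus cells, had 106 ± 71.4 and 124 ± 79.0 FPKM, and its partner BMP15 had 26.8 ± 10.7 and 22.8 ± 13.9 FPKM. None of 16 maternal effect genes passed (median -0.06). NPM2, which remodels sperm chromatin, came nearest, with 24.6 ± 6.6 and 17.6 ± 5.33 FPKM (-0.48, limma unadjusted p = 0.0745). None of 33 RNA-binding regulators of stored mRNA passed (median -0.03), and ZAR1L and ZAR1, which hold stored mRNA, were at 60.8 ± 18.1 and 43.7 ± 15.7 FPKM and at 28.8 ± 7.77 and 24.6 ± 13.2 FPKM. Of 45 genes of mRNA deadenylation, decapping and decay (median -0.0048), UPF3B and ZCCHC6, a uridylating enzyme of short-tailed mRNA, fell, the latter from 0.929 ± 0.240 to 0.556 ± 0.213 FPKM. The p of ZCCHC6 was under 0.05 in 11 of 22 alternative fits.

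For the machinery of meiosis, 3 lists were described. Of 55 genes of spindle assembly, checkpoint and cohesin (median -0.06), 4 fell with p under 0.05 (1.51% of all genes) and none rose. AURKA, the kinase of spindle poles, had 180, 204 and 232 FPKM in spring and 119, 148 and 199 FPKM in summer, with some overlap, and fell from 204 ± 18.1 to 151 ± 29.2 FPKM (-0.44, 95% interval -0.81 to -0.08, limma unadjusted p = 0.0202). TUBG1, gamma-tubulin, fell from 6.63 ± 2.58 to 3.80 ± 2.38 FPKM (-0.74, limma unadjusted p = 0.0460), and its p was under 0.05 in 11 of 22 alternative fits. KIF2C is given above, and the fourth, SMC1A of the cohesin ring, was under 1 FPKM. None of 42 genes of maturation promoting factor, cyclins and the anaphase promoting complex passed (median -0.02), with UBE2C at 103 ± 17.4 and 108 ± 55.9 FPKM. None of 19 cAMP genes of meiotic arrest passed (median -0.06). A test of whether the spindle list differed from the cyclin list was not made.

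Genes of translation and energy supply held the widest groups without a called gene. Of 84 cytosolic ribosomal proteins, 59 had a higher (40.6% of all genes) and 25 a lower mean in summer, none had p under 0.05, and the median of 0.12 was the highest of all lists under each scaling. The summed level of the list was 6560 ± 2043 FPKM in spring and 6563 ± 2393 FPKM in summer, with an interval within 2-fold for 59 of the 84. Of 80 oxidative phosphorylation subunits 45 were higher (median 0.06), of 78 mitochondrial ribosomal proteins 51 were lower (median -0.05), and none passed in either list. Among 57 translation initiation and elongation factors (median -0.03), EIF2B2 rose, at 0.0674 ± 0.0542 and 0.152 ± 0.0723 FPKM. Of 47 proteasome genes (median -0.09), PSMD7, a lid subunit, fell from 18.4 ± 5.43 to 12 ± 4.41 FPKM. The p of PSMD7 was under 0.05 in 13 of 23 alternative fits. Of 37 genes of mitochondrial dynamics and mitophagy (median -0.06), the autophagy receptor CALCOCO2 fell from 2.09 ± 0.724 to 1.10 ± 0.225 FPKM, with p under 0.05 in all 23 alternative fits. None passed among 43 genes of glycolysis and the citric acid cycle, 44 lipid and cholesterol genes and 33 ubiquitin conjugating enzymes, with medians of -0.02, -0.04 and -0.03. GAPDH of glycolysis had 26.4 ± 11.6 and 17.1 ± 12.7 FPKM, and PLIN2, the coat of lipid droplets, 17.7 ± 6.34 and 17.7 ± 6.22 FPKM.

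In the nucleus, 3 of 62 genes of the spliceosome and RNA processing (median 0.01) fell with p under 0.05 (1.51% of all genes) and none rose: SRSF3 from 3.32 ± 1.13 to 2.13 ± 0.499 FPKM, SRSF5 from 4.47 ± 1.89 to 2.74 ± 0.724 FPKM and LSM12 from 8.09 ± 1.48 to 5.67 ± 1.74 FPKM. SRSF3 and SRSF5 are splicing factors rich in serine and arginine. Of 23 alternative fits, p was under 0.05 in 11 for SRSF3, 7 for SRSF5 and 12 for LSM12. SNRPF, a core protein of the spliceosome and the most abundant of the list, had 187 ± 34.7 and 250 ± 67.2 FPKM (0.39, limma unadjusted p = 0.0854). ZNF830, FAM50A and IK were not on this list. None of 42 nuclear pore and transport genes passed (median -0.0025). Of 125 ZNF genes (median -0.01), 4 fell and 1 of them, ZNF830, was called. The others were ZNF689, from 11.2 ± 4.06 to 6.61 ± 6.08 FPKM with p under 0.05 in 10 of 23 alternative fits, and ZNF322 and ZNF687, both under 1 FPKM. None of 17 DNA methylation and demethylation enzymes passed (median 0.05). Of 30 histone modifiers (median -0.04), SETDB2 and SIRT2 fell, both at means under 0.15 FPKM. Of 22 alternative fits, p was under 0.05 in 5 for SETDB2 and 21 for SIRT2.

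Several lists follow pathways that the study named from these same libraries, so their counts are not independent evidence of a direction. Of 20 pluripotency and early embryo transcription factors (median -0.10), 16 were lower in summer (59.4% of all genes), SOX2 was called, and NR2F1 fell at means of 0.201 ± 0.0862 and 0.0902 ± 0.0823 FPKM. None of 33 Wnt/beta-catenin genes passed (median -0.02), with CTNNB1 (beta-catenin) at 3.29 ± 3.77 and 3.24 ± 2.84 FPKM. None of 8 genes of melatonin degradation and reception passed (median -0.01), and POR, the reductase of cytochromes P450, was at 1.64 ± 1.63 and 1.03 ± 0.806 FPKM with 4.91 FPKM in spring replicate 6. Of 46 MAPK cascade genes (median -0.01), DUSP14 fell, and of 26 melanosome genes (median -0.05), BLOC1S3 fell, both at means under 0.2 FPKM. Of 51 genes of transcriptional repression (median -0.02), CBX1 and GATAD2B fell and E2F8 rose, all under 1 FPKM. The 13 genes around CRH and glucocorticoids (median -0.08) held CRH and HSD3B1, and the latter fell from 0.0754 ± 0.0776 to 0.0117 ± 0.00412 FPKM on 20 reads. HSD3B1 is also one of the cumulus and granulosa cell markers, and its highest value, 0.206 FPKM, was in spring replicate 6, which had the highest sum of these markers. Their part in the difference was not tested. Its limma unadjusted p was 0.0787 without this library and under 0.05 in 9 of 22 alternative fits. None of 17 clock and hormone receptor genes passed (median -0.04), with PER1 at 3.93 ± 3.05 and 4.10 ± 3.25 FPKM.

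Of the 5 genes that the study names for both stages, BHLHE41 did not pass the filter in MII oocytes. E2F8, a repressor of the cell cycle, rose from 0.0501 ± 0.0328 to 0.116 ± 0.0588 FPKM (limma unadjusted p = 0.0380). FBXO44, a ubiquitin ligase adaptor, fell from 0.112 ± 0.0323 to 0.0358 ± 0.0502 FPKM (limma unadjusted p = 0.00993) on 20 reads in all 12 libraries. GATAD2B, of the NuRD repressor complex, fell from 0.202 ± 0.101 to 0.0891 ± 0.0623 FPKM (limma unadjusted p = 0.0289). RAB39B, a small GTPase, had 0.0631 ± 0.0340 and 0.0218 ± 0.0288 FPKM (limma unadjusted p = 0.0589) on 14 reads. At these levels the added 1 keeps every log2 fold change between -0.14 and 0.09, and none of these genes could reach 2-fold on this scale.

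The seasonal difference in MII oocytes was also set against that in GV oocytes, in 1 limma fit over all 24 libraries and 9526 genes. In this test 20 genes (0.21%) differed by more than 2-fold with an unadjusted p under 0.05, 171 (1.8%) had p under 0.05, and none had an adjusted p under 0.05. For ZNF830 the difference between the stages was -1.29 on the log2 scale (limma unadjusted p = 0.00605) and for CRH it was -1.04 (limma unadjusted p = 0.0292). For SOX2 it was -1.16 (limma unadjusted p = 0.0855) and for LOC616092 -0.81 (limma unadjusted p = 0.110). These genes were chosen for their difference in MII oocytes, so the values are descriptions. At the GV stage SOX2 was at 9.86 FPKM in spring and 8.19 FPKM in summer, and LOC616092 at 3.40 and 2.66 FPKM.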

How the data were processed

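RNA of denuded oocytes was amplified with the Smart-seq2 v4 kit and sequenced as paired-end reads. Per the labels and the study's methods, the authors aligned trimmed reads to the bovine assembly UMD3.1.1 with STAR 2.5.3a and expressed gene levels in FPKM. Before deposit these FPKM had been scaled to a common total per library and raised by 0.01, which was read from the values. The annotation version is not given in the sources used here.

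The 8342 genes that exceeded 0.1 FPKM in any of the 12 MII libraries were put on the log2(FPKM + 1) scale. Differences were fitted with limma 3.58.1 in R 4.3.3 (lmFit, eBayes with a trend on mean expression), with the 12 MII libraries in the fit. The authors used Partek Flow, which was not used here. Adjusted p values are Benjamini-Hochberg over all genes tested. The exact permutation test is two-sided over 924 assignments of the 12 libraries. A gene was counted as stable when the 95% interval of its difference lay within 2-fold, and also within 1.5-fold.

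Relative depth and reads per gene were recovered in Python 3.11.15 (numpy 2.4.6, pandas 2.3.3), since each low value is a whole multiple of the worth of 1 read. Of 12599 values not used for the estimate, 99.1% were within 0.1 read of a whole number, where chance gives 20%. Reads were recovered for 10436 of the 11306 genes, which held 55.4% of all FPKM. They came to 907437 in spring replicate 6 and 2728725 to 3556340 in the other MII libraries. These reads served a voom fit, added after the data had been seen. The limma fit and the depth estimate were tested on simulated data.

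The genes named are those called, the 10 higher and 10 lower genes with the smallest p, the 20 most abundant genes, the genes that the study names for both stages, the most abundant members and those with the smallest p of each list, and the largest differences among genes without overlap between seasons. Genes named outside this rule were chosen after their values were seen. Members and gene lists were chosen with earlier results of these data known. All 29 symbols listed at 2 loci were kept as 2 entries. A further gene is not reported here. The alternatives were other pseudocounts, filters and scalings, all 4 groups in one fit, a block for the replicate number, adjusted p, the ratio of means, robust moderation, the number of genes detected as a covariate and leaving out each library. Sequences, climate, oocyte grades and DNA methylation were not analysed here.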

Additional observations from a re-analysis of the deposited data

Results flagged for a closer look

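In 19 of 226 groups of 6 values looked at for the named genes, or 8.41%, the highest or lowest library stood apart from the rest by Dixon's test at 95%, which chance gives in about 5%. Spring replicate 6 held 7 of them: ACYP1 (1.65 FPKM), DYNLL1 (195 FPKM) and CKS1B (104 FPKM) at the low end, and POR (4.91 FPKM), HAS2 (3.99 FPKM), KRT18 (70.8 FPKM) and TMEM205 (15.4 FPKM) at the high end. This library had the lowest depth and the highest sum of cumulus cell markers, and the part of either in these values was not tested.

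Other spring libraries stood apart for ZNF830 (36.4 FPKM in replicate 1), KIF2C (11.5 FPKM in replicate 4) and ZP2 (185 FPKM in replicate 5). In summer, TMSB4X reached 8940 FPKM in replicate 5, ACYP1 16.1 FPKM in replicate 4, and PTMA was low in replicate 2 with 9.20 FPKM. The remaining ones were rare transcripts: PTAFR with 0.126 FPKM in summer replicate 2, ELSPBP1 with 0.0586 FPKM in summer replicate 5, EIF2B2 with 0.288 FPKM in summer replicate 6, FBXO44 with 0.135 FPKM in summer replicate 4, RAB39B with 0.0805 FPKM in summer replicate 1 and HSD3B1 with 0.0201 FPKM in summer replicate 1.

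For 10 of the 113 named genes (0.21% of all genes tested) the seasonal difference in MII oocytes differed from that in GV oocytes by more than 2-fold at an unadjusted limma p under 0.05. Many of the 113 were named for their difference in MII oocytes, so the count is not independent of that choice. On the log2 scale the difference between the stages was -1.29 for ZNF830, -1.04 for CRH, -1.06 for MESDC2, -1.06 for FAM50A, -1.03 for IK, -1.21 for ZP2, -1.25 for TMEM205, -1.34 for TUBG1, -1.28 for DKC1 and 1.91 for MIR10B. None had an adjusted p under 0.05 in limma, and the lowest adjusted p over all genes was 0.9998. ZP2 had 44.4 FPKM in spring and 86.2 FPKM in summer GV oocytes, and its own seasonal difference in MII oocytes did not pass. DKC1 had 5.97 and 10.1 FPKM and TUBG1 4.08 and 5.98 FPKM at the GV stage, where the order of the seasons was opposite to that at MII.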

How the results depend on the processing

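No alternative turned the direction of a called gene, and in each the number of genes with an adjusted p under 0.05 was 0. In place of 4 called genes, a pseudocount of 0.1 gave 25 and one of 0.01 gave 82, the ratio of group means as fold change 63, voom on the recovered reads 88, median-of-ratios scaling 2 and adjusted p 0, and leaving out 1 library gave 3 to 17. In place of 7540 stable genes, pseudocounts of 0.1 and 0.01 gave 4907 and 2304, keeping only means of 1 FPKM or more 2510 of 3291 and voom 2110 of 7972. Leaving out 1 library gave 7246 to 7519. A smaller pseudocount damps rare genes less and the filter leaves fewer genes to count. The cause of the other shifts was not tested. For the difference of the seasonal change between stages, 96 genes in place of 20 passed with a pseudocount of 0.1, and 15 to 41 without 1 library, with 41 without spring GV replicate 6, 38 without summer MII replicate 6 and 31 without spring GV replicate 2.

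With the replicate number as a block, 7 genes were called, among them all 4, and 283 had p under 0.05 in place of 143. The study sampled the same cows in both seasons, but the labels do not say that a number stands for the same cow. Deviations from the season means correlated over 0.1 between 4 of the 6 same-numbered pairs (from -0.441 to 0.765), and 4 of 6 matched their own number best. This is a hint from the data that some numbers are shared, but it did not hold for all pairs, and the fit without the block was kept.

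At the depth of these libraries, genes under 1 FPKM often rest on few reads. Of the 135 genes with p under 0.05 and recovered reads, 41 had under 120 reads in all. The genes with recovered reads held 55.4% of all FPKM in MII oocytes, and most of the 20 most abundant genes were not among them.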

Other observations

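Of the cumulus expansion genes among the markers, HAS2 and PTGS2 were found at low levels in MII oocytes of both seasons. Others were lower still, with spring and summer means of 0.321 and 0.316 FPKM for PTX3 and 0.156 and 0.190 FPKM for GREM1. VCAN had 0.0924 and 0.0745 FPKM, and TNFAIP6 0.0358 and 0.0291 FPKM. HAS2, the hyaluronan synthase of the expanding cumulus, had 1.19, 1.45 and 3.99 FPKM as the lowest, median and highest spring values and 0.875, 1.77 and 3.64 FPKM in summer (log2 fold change 0.15, 95% interval -0.41 to 0.72). PTGS2, which makes prostaglandins in the cumulus, had 1.33, 2.59 and 6.87 FPKM in spring and 1.68, 2.93 and 8.68 FPKM in summer (0.16, -0.57 to 0.90). STAR and KRT8, markers of the same list that are not expansion genes, were higher. STAR, the cholesterol carrier of steroid-forming cells, had 20.6 ± 10 and 21.7 ± 15.1 FPKM, and KRT8 27.5 ± 12.8 and 21.9 ± 12.1 FPKM. A seasonal difference was not detected for HAS2, PTGS2, STAR or KRT8, all with limma p of 0.05 or more.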
